A study of Mus musculus with 8 samples.

Results

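The mouse Zfp genes encode zinc finger proteins, and the peaks described here are the regions of H3K9me3 enrichment in colon crypts whose closest gene, as the authors annotated it (over the peak or within 5 kb), has a symbol made of Zfp and a number. This rule took 449 of the 53761 peaks, and these belonged to 207 of the 5543 genes that are the closest gene of any peak. H3K9me3, the trimethylation of lysine 9 of histone H3 that marks silenced chromatin, was measured by ChIP-seq in isolated whole colon crypts of male C57BL/6 mice. The libraries came from WT mice (3 ChIP libraries and 1 input library of chromatin taken before immunoprecipitation) and from mice with *Vil-Cre*-mediated knockout of *Smarcad1* (KO; 3 ChIP libraries and 1 input library). *Smarcad1* encodes a chromatin remodeler. Its floxed allele is deleted by a Cre under the villin promoter, which is active in intestinal epithelium, so other cells in a crypt isolate keep the gene. The age of the mice was not given in the sources used here, and the labels do not say whether WT mice carried the Cre.

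Zinc finger proteins bind DNA through tandem fingers of about the same length, which are joined by a short conserved linker and are often all encoded by the last coding exon. The largest family among them carries a KRAB domain, which recruits Trim28 and the methyltransferase Setdb1 to place H3K9me3 over retroelements. The genes of this family lie in clusters of tandem copies and are themselves known to carry H3K9me3, mostly over their 3' ends. Near-identical copies within a cluster can share reads, and reads with a mapping quality under 20 had been removed, so levels at the most similar copies are uncertain.

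The sequence that encodes the linker repeats within a finger array and so shows which part of a Zfp gene a peak covers. The motif searched was the zinc finger linker, that is the 14 bases that encode its 5 conserved residues up to the last variable position, with the third position of each codon left free. It was counted on both strands of peaks and on the coding strand of exons. The following windows of 300 bases lie within peaks that differed between KO and WT, and they were chosen to show what such a peak covers. For *Zfp180*, *Zfp27* and *Zfp12* they come from the coding part of the exon with the finger array. For *Zfp445* and *Zfp809* they come from the coding exon with most linker matches, and for *Zfp462* from a coding exon without a match. All are GRCm38 sequence read 5' to 3' on the strand of the gene, with linker matches in capitals.
Zfp180: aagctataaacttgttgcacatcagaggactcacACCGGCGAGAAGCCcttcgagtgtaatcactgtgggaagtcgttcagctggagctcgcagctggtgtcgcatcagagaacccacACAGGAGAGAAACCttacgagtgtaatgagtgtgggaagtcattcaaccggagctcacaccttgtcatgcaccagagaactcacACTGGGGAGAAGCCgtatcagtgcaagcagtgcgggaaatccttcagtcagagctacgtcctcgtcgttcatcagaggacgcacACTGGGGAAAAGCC
Zfp27: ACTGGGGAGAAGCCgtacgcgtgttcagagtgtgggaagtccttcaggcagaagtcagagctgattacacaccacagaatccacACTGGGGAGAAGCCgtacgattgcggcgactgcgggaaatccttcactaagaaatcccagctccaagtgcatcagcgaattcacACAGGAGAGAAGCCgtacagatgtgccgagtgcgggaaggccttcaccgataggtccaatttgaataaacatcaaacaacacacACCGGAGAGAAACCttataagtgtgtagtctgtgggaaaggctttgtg
Zfp445: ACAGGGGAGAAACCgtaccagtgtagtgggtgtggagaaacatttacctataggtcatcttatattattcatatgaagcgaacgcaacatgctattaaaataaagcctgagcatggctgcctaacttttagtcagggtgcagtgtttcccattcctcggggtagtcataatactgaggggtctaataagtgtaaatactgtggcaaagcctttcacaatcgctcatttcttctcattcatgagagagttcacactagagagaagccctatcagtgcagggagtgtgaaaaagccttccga
Zfp809: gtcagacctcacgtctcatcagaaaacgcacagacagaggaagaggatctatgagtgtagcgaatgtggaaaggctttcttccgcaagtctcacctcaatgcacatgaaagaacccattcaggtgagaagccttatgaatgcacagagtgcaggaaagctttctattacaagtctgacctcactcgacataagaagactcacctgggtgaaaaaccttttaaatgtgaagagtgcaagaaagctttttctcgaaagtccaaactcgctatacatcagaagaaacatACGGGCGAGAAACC
Zfp12: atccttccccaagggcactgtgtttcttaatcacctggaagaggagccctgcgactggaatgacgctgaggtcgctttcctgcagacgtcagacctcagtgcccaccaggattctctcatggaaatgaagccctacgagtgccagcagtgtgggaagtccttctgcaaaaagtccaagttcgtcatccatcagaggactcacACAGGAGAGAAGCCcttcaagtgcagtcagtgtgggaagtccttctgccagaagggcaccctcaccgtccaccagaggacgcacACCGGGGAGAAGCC
Zfp462: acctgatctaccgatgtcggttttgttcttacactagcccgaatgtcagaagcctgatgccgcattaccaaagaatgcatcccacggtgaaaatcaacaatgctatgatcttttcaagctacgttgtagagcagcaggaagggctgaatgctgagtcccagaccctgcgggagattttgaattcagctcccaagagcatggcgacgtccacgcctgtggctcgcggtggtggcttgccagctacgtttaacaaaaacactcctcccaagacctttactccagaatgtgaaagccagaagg
The positions are chr7:24105564-24105863 on the plus strand for *Zfp180*, chr7:29894130-29894429 on the minus strand for *Zfp27*, chr9:122852607-122852906 on the minus strand for *Zfp445*, chr9:22238796-22239095 on the plus strand for *Zfp809*, chr5:143244477-143244776 on the plus strand for *Zfp12* and chr4:55010776-55011075 on the plus strand for *Zfp462*. The windows of *Zfp180* and *Zfp27* each hold 4 linker matches, and these start 84 bases apart, the length of a finger with its linker. *Zfp12* has 2 matches in its window, *Zfp445* and *Zfp809* have 1 each, and *Zfp462* has 0. Over windows of this length placed at peak centres, 13.8% of the Zfp peaks and 0.363% of all peaks held at least 1 match.

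The level of a peak is a log2 read count, and the authors adjusted these values so that all 6 ChIP libraries follow the same distribution, which removes any change of equal size at most peaks. Reads per peak, recovered from the steps of the values, had medians over the Zfp peaks of 29, 36 and 39 in WT replicates 1 to 3 and of 29, 36 and 33 in KO replicates 1 to 3. Input reads at the median Zfp peak numbered 18 for WT and 17 for KO. The median SD between the 3 libraries of a genotype at the Zfp peaks was 0.20 (WT) and 0.21 (KO) in log2 units, and over all peaks it was 0.28 and 0.31.

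H3K9me3 covered Zfp genes in broad peaks. Their median width was 2100 bp, while that of all peaks was 1050 bp, and they ranged from 300 to 42750 bp. A width of at least 10 kb was reached by 63 of the Zfp peaks, out of 286 such peaks in the whole series. Of the Zfp peaks, 27.6% were at least 5 kb wide, compared to 1.79% of all peaks. The rule used gene names and neither width nor level, but it takes only peaks with a closest gene, which wide peaks have more often. The 15231 other peaks with a closest gene had a median width of 1200 bp. Of these, 2.74% were at least 5 kb wide and 0.913% at least 10 kb. Peaks of a cluster are not independent of each other, and no test was made over them.

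The median WT level per kb over all Zfp peaks was 4.15 (log2 reads per kb, mean of the 3 WT libraries), and over all peaks it was 3.97. At Zfp peaks the median was 4.32 from 300 to 600 bp, 4.00 from 600 to 1200 bp and 3.95 from 1200 to 2400 bp, and at other peaks of these widths it was 4.34, 3.95 and 3.91. Among wider peaks it was higher again with each class. It was 4.08 from 2400 to 5000 bp, 4.41 from 5 to 10 kb, 4.69 at 47 Zfp peaks from 10 to 20 kb and 4.84 at 16 wider ones, and other peaks of these widths had 3.91, 4.08, 4.34 and 4.62. The input was not higher at the Zfp peaks. Its median level per kb was 3.08 at the Zfp peaks and 3.20 over all peaks, and the WT ChIP level exceeded the unscaled WT input by a median of 1.18 and 0.79, respectively. GC content was 41.8% at the median Zfp peak and 41.9% over all peaks, and repeats took 31.9% and 37.8% of the bases.

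**Figure D1:**
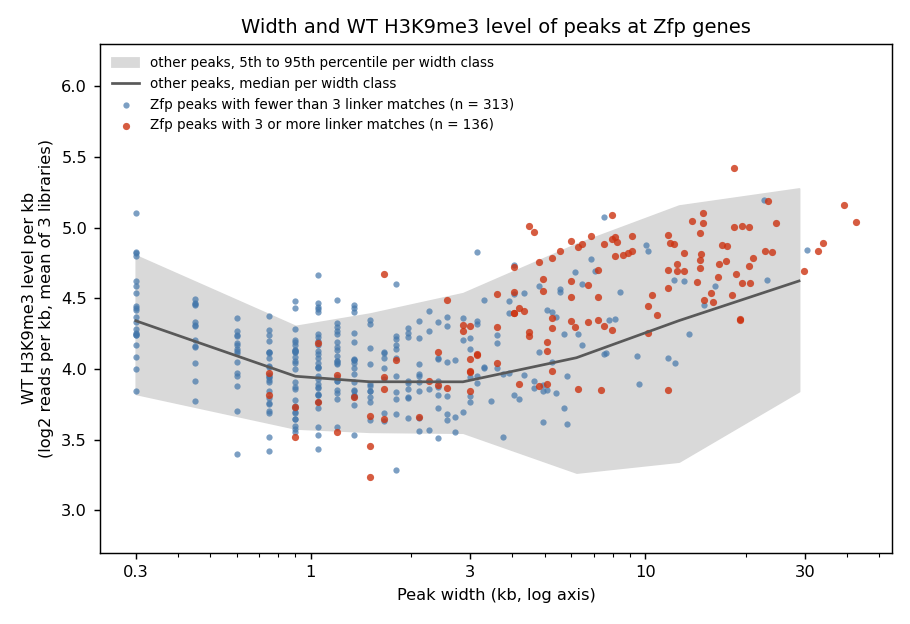
WT H3K9me3 level per kb (log2 reads per kb, mean of 3 libraries) against peak width (kb, log axis). Each point is 1 of the 449 Zfp peaks, red with 3 or more linker matches and blue with fewer, and the grey line and band give the median and the 5th to 95th percentile of the other peaks per width class. Most red points lie at widths above 3 kb and many of these lie above the median of other peaks of that width.

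Most of the broad Zfp peaks held finger arrays. At least 3 linker matches were found in 136 of the 449 Zfp peaks (30.3%), compared to 0.608% of all peaks, and in 51 of the 63 Zfp peaks of at least 10 kb. These 136 peaks had a median width of 6825 bp and a median WT level of 4.54 log2 reads per kb, and the other 313 Zfp peaks had 1350 bp and 4.07. The WT ChIP level exceeded input by a median of 1.55 in the former and 1.03 in the latter. A further 191 peaks with at least 3 matches lay at genes with other names or at no gene, with a median width of 4950 bp and a median WT level of 4.24 log2 reads per kb.

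Gene models showed the same from the side of the genes. In the GENCODE vM21 annotation of GRCm38, 225 of 394 Zfp genes had an exon whose coding part holds at least 3 linker matches, termed finger exon here, and it was the last coding exon in 224 of them. A peak lay over the finger exon in 149 of the 225 genes (66.2%, 95% Clopper-Pearson interval 59.6 to 72.4%, which covers counting error only). Only 8 of these genes had a peak over their start (3.56%), and 103 had one over their end (45.8%). The 169 other Zfp genes had a peak over their last coding exon in 28 cases (16.6%). Among the 100 protein-coding genes with other names and a finger exon, such as the predicted genes and the Zscan genes, 45 had a peak over it. Among the remaining 21359 protein-coding genes, 381 (1.78%) had a peak over their last coding exon. Along the gene body, the share of Zfp genes with a finger exon that had a peak rose from 3.56% in the window nearest to the start to 54.2% at its highest, near the end.

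**Figure D2:**
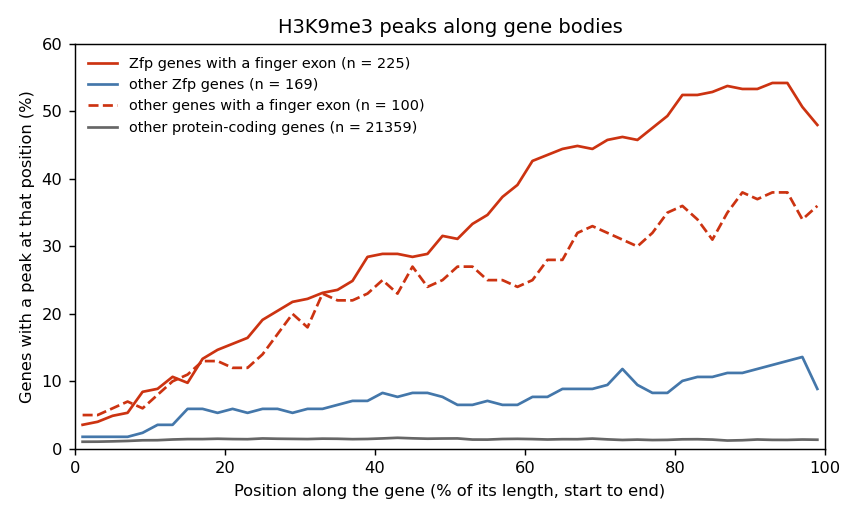
Percent of genes with an H3K9me3 peak at each position along the gene, from start (0) to end (100% of its length) in 50 windows, for 4 groups of protein-coding genes. Both groups with a finger exon rise towards the gene end, the Zfp genes to 54.2%, while the other protein-coding genes stay under 2% throughout.

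The densest of all Zfp peaks covered *Zfp180*, an 18450 bp peak at chr7:24092251-24110700 with 9 linker matches. Its log2 values were 9.59, 9.65 and 9.64 in WT, or 5.42 log2 reads per kb. The next 9 in level per kb lay at *Zfp110*, *Zfp873*, *Zfp382*, *Zfp606*, *Zfp157*, *Zfp445*, *Zfp850*, *Zfp942* and *Zfp930*, with 5.03 to 5.19 log2 reads per kb. In all 10 of them the WT ChIP level exceeded the WT input by 1.79 to 2.24 on the log2 scale. *Zfp110*, whose product interacts with the neurotrophin receptor p75, had 0 linker matches in its 22650 bp peak and yet a level of 5.19 per kb.

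The widest Zfp peak lay over *Zfp942* (chr17:21918151-21960900, 42750 bp), followed by *Zfp382* (39150 bp), *Zfp943* (34050 bp) and *Zfp946* (32850 bp). The WT values of *Zfp942* were 10.42, 10.42 and 10.55 and its KO values 10.42, 10.38 and 10.16. The next in width were *Zfp369*, *Zfp938*, *Zfp930*, *Zfp120*, *Zfp873* and *Zfp759*, from 30450 to 23100 bp. Among these 10 peaks the difference between KO and WT ran from -0.23 at *Zfp946* to 0.00 at *Zfp873*, and none passed the test, with adjusted p from 0.26 to 1.00 in limma.

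Most Zfp genes had a single peak. Of the 207 genes, 118 had 1 peak, 63 had 2 or 3, and 26 had more. *Zfp536*, a repressor of neuronal differentiation, had 45 peaks, none of them with 3 or more linker matches, with a median width of 1950 bp and a median level of 3.81 per kb, below that of the other 404 Zfp peaks (4.21). *Zfp808* came next with 18 peaks, of which the widest (11700 bp) held 18 linker matches and the others held 0. *Zfp934* had 10 peaks, *Zfp182* had 9 and *Zfp937* had 7. None of these 5 genes had a peak that differed between KO and WT, and their log2 differences per gene lay between -0.13 and 0.28.

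The Zfp peaks lay partly in clusters. Chromosome 7 held 116 of them, chromosome 13 held 72 and chromosome 17 held 60. With neighbouring Zfp peaks at most 500 kb apart and at least 3 genes, 19 clusters took up 108 genes and 232 peaks. The largest lay at chr13:66666451-67828200 (16 genes, 29 peaks, widest at *Zfp759*), where the Zfp peaks covered 18.5% of the span. Peaks of other genes or of no gene within a span were not counted. It was followed by chr17:21021901-23185800 (14 genes, 29 peaks, widest at *Zfp942*), chr7:29762701-30168150 (9 genes, 14 peaks, widest at *Zfp382*), chr17:32973901-33399450 (8 genes, 21 peaks, widest at *Zfp81*) and chr7:24085801-24587850 (7 genes, 10 peaks, widest at *Zfp180*). The highest share covered by Zfp peaks was that of a small cluster at chr9:22184401-22312950. There, 12 peaks of *Zfp809*, *Zfp599*, *Zfp810* and *Zfp872* took up 41.7% of the span. Clustered peaks had a median width of 2700 bp and a median level of 4.25 per kb, and the 217 Zfp peaks outside clusters had 1650 bp and 4.06.

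To see whether loss of Smarcad1 altered H3K9me3 at these genes, KO and WT were tested peak by peak with limma, two-sided, with a Benjamini-Hochberg adjustment over all 53761 peaks. H3K9me3 differed at 23 of the 449 Zfp peaks (5.12%), with an increase in KO at 11 and a decrease at 12, against a background of 1.66% of all peaks tested, 0.796% up and 0.863% down. At an unadjusted p under 0.05 there were 83 Zfp peaks (18.5%), compared to 10.6% of all peaks. KO values did not overlap WT values at 110 Zfp peaks (24.5%), compared to 15.6% of all peaks. Of the 15231 other peaks with a closest gene, 589 were called (3.87%), 379 up and 210 down. At 19.8% of them KO and WT values did not overlap. Wide peaks carry more reads and were called more often in the whole series, at 13.4% of the peaks of at least 5 kb. Among the 124 Zfp peaks of that width 10 were called (8.06%), 7 down and 3 up, so the higher share over all Zfp peaks did not hold at this width. The other 839 peaks of at least 5 kb had 34 decreases and 85 increases. This difference in direction was not tested. Below 5 kb, 13 of 325 Zfp peaks (4.00%) and 1.43% of other peaks were called. From 1200 to 2400 bp the shares were 8.74% and 1.69%, but from 2400 to 5000 bp they were 3.49% and 5.25%. From 600 to 1200 bp they were 0.98% and 0.641%, and under 600 bp no Zfp peak was called.

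The mean log2 value over the 449 peaks was 5.49, 5.44 and 5.44 in the WT libraries and 5.47, 5.58 and 5.35 in the KO libraries, so that KO replicate 2 lay above and KO replicate 3 below all WT libraries. The difference of the means was 0.011. The median log2 fold change of the Zfp peaks was 0.03 and that of all peaks 0.0023, and 249 Zfp peaks were higher and 200 lower in KO. By width, the median was 0.10 at the 325 Zfp peaks under 5 kb (196 higher and 129 lower) and -0.10 at the 63 of at least 10 kb (22 higher and 41 lower). Other peaks had 0.0033 under 5 kb and -0.08 from 10 kb (80 higher and 143 lower), and the differences between these groups were not tested. Of the 136 Zfp peaks with at least 3 linker matches, 8 were called (5.88%), 6 up and 2 down. Over all peaks 1.66% were called, and over all peaks of at least 5 kb 13.4%. As 63.2% of the 136 peaks were at least 5 kb wide, the 1.66% is not from peaks of like width. The median log2 fold change of the 136 peaks was 0.07 (87 higher and 49 lower). The 191 other peaks with at least 3 matches had 3 calls (1.57%) and a median of 0.15 (133 higher and 58 lower).

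The 23 calls depended on the fit and the libraries. When limma used a constant prior for the variance, no Zfp peak passed, although 41 had an unadjusted p under 0.05 and voom on recovered reads called 11 of the 302 Zfp peaks with at most 100 reads, against 10 when limma was fitted to all peaks of that depth alone. Leaving out a single library gave 14 to 22 calls, with 2 increases and 12 decreases without KO replicate 2, and 3 and 11 without KO replicate 1. The peaks that kept their call whichever library was left out were 5 decreases (2 at *Zfp445* and 1 each at *Zfp180*, *Zfp780b* and *Zfp809*) and 2 increases (at *Zfp462* and *Zfp503*).

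**Figure D3:**
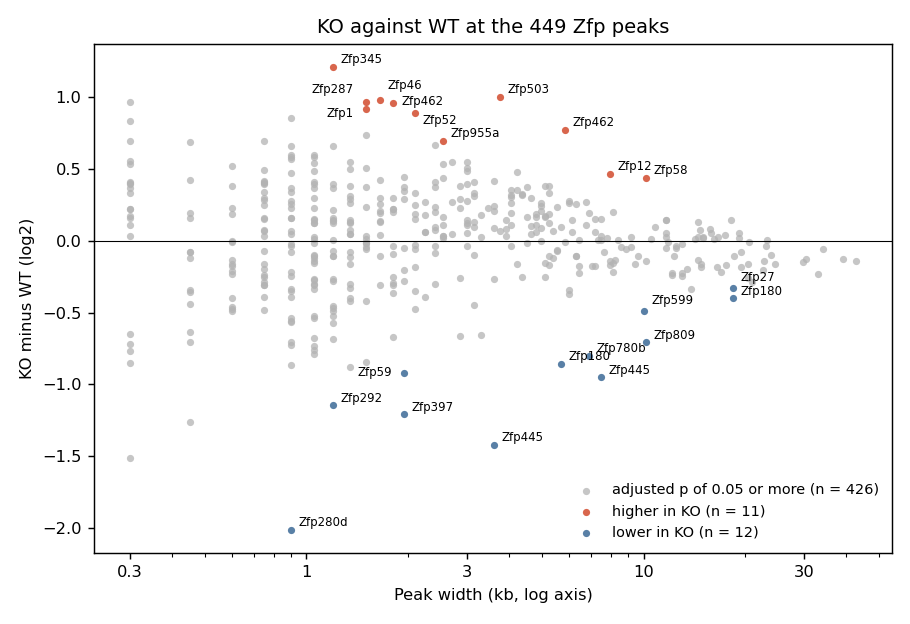
KO minus WT difference (log2) against peak width (kb, log axis) for the 449 Zfp peaks, with the 11 that were higher in KO in red, the 12 that were lower in blue and the closest gene written beside them. Differences of narrow peaks scatter widely in both directions, and Zfp445, Zfp180, Zfp780b, Zfp809 and Zfp599 lie below the grey points of similar width.

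Decreases were found at 10 genes, with a median peak width of 6300 bp. The smallest adjusted p was at *Zfp445*, a KRAB zinc finger gene known for keeping methylation at imprinted regions. Its 7500 bp peak at chr9:122855551-122863050, over an exon of the gene, had log2 values of 7.99, 7.90 and 8.05 in WT and 7.23, 7.05 and 6.82 in KO. All KO values were below all WT values, with a log2 fold change of -0.95 (limma adjusted p = 1.99e-07, standard error 0.12). The neighbouring 3600 bp peak at chr9:122851351-122854950, which contains the window printed above, had 5.79, 6.08 and 6.23 in WT and 5.41, 3.94 and 4.48 in KO. These also did not overlap, although KO replicate 1 was close to the lowest WT library, and the log2 fold change was -1.42 (limma adjusted p = 3.24e-05, standard error 0.23). Its reads fell from 49, 75 and 83 in WT to 35, 15 and 24 in KO.

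*Zfp180* lost H3K9me3 at both of its peaks. The dense 18450 bp peak, which covers the finger exon and the gene end, had 9.22, 9.26 and 9.21 in KO, against the WT values given above. The spread within each genotype was small (SD 0.03 in both), and the log2 fold change was -0.40 (limma adjusted p = 0.0041, standard error 0.09). The 5700 bp peak beside it (chr7:24085801-24091500), within an intron and with 70.2% repeat bases, had 6.71, 6.77 and 6.79 in WT and 6.13, 5.82 and 5.75 in KO, a log2 fold change of -0.86 (limma adjusted p = 0.00017, standard error 0.15).

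Neighbouring genes fell together in a cluster on chromosome 9. *Zfp809*, which silences murine leukemia virus sequences through their primer binding site, had a 10200 bp peak (chr9:22233451-22243650) with 8.12, 8.29 and 8.14 in WT and 7.53, 7.58 and 7.33 in KO. The groups were well apart, with a log2 fold change of -0.71 (limma adjusted p = 2.82e-05, standard error 0.11). *Zfp599*, the next Zfp gene with a peak, had a 10050 bp peak with 8.24, 8.14 and 8.24 in WT and 7.75, 7.85 and 7.56 in KO, a log2 fold change of -0.49 (adjusted p = 0.0063 from limma). Both peaks reach over the gene end. In this cluster 10 of the 12 Zfp peaks had a lower mean in KO, and their median difference was -0.44.

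In the cluster at chr7:27746101-27994800 the 6900 bp peak that reaches into the finger exon of *Zfp780b* had 7.57, 7.57 and 7.56 in WT and 6.93, 6.61 and 6.76 in KO, a log2 fold change of -0.80 (adjusted p = 2.12e-05 from limma). A 1950 bp peak of its neighbour *Zfp59* was lower by a log2 fold change of -0.92 (adjusted p = 0.024 from limma), and 8 of the 9 Zfp peaks of the cluster had a lower mean in KO. The broad peak of *Zfp27*, with 12 linker matches, had the smallest decrease, with 9.18, 9.19 and 9.26 in WT and 8.83, 8.93 and 8.89 in KO (log2 fold change -0.33, adjusted p = 0.0497 from limma), and this call was kept in 2 of 6 fits with a library left out. The remaining decreases were at narrow peaks of 900 to 1950 bp at *Zfp280d*, *Zfp397* and *Zfp292*, with log2 fold changes of -2.01, -1.21 and -1.15. That of *Zfp280d* rests on few reads, which were 23, 21 and 19 in WT and 9, 7 and 2 in KO, and without KO replicate 3 it was -1.21 (no longer past the threshold). At *Zfp292* the reads were 12, 32 and 35 in WT and 9, 11 and 10 in KO. With a library left out, the call at *Zfp292* was kept in 1 of 6 fits and that at *Zfp59* in 2. Those at *Zfp280d* and *Zfp397* were kept in 4 and 5.

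By chromosome, 5 of the decreases were among the 116 Zfp peaks on chromosome 7 (4.31%) and 5 among the 32 on chromosome 9 (15.6%). The other 2 lay on chromosomes 4 and 18. Over all peaks, 24 of the 3455 on chromosome 7 (0.695%) and 32 of the 1711 on chromosome 9 (1.87%) were decreased. In the other clusters on chromosome 7 the median differences were 0.11 with *Zfp382* (1 decrease, at *Zfp27*), -0.11 with *Zfp110* (7 of 9 peaks lower in KO, none called) and 0.33 with *Zfp667*. In the remaining cluster on chromosome 9, with *Zfp560*, the median was -0.0041. The largest clusters had medians of 0.05 on chromosome 13 (22 of 29 peaks higher in KO) and 0.02 on chromosome 17 (17 of 29), with 1 called increase each. The cluster with *Zfp808* on chromosome 13 had a median of 0.22 (25 of 31 peaks higher, none called). Over the 72 Zfp peaks of chromosome 13, mean log2 values were 5.18, 5.04 and 5.05 in WT and 5.16, 5.46 and 5.04 in KO. Only KO replicate 2 lay above all WT libraries there.

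**Figure D4:**
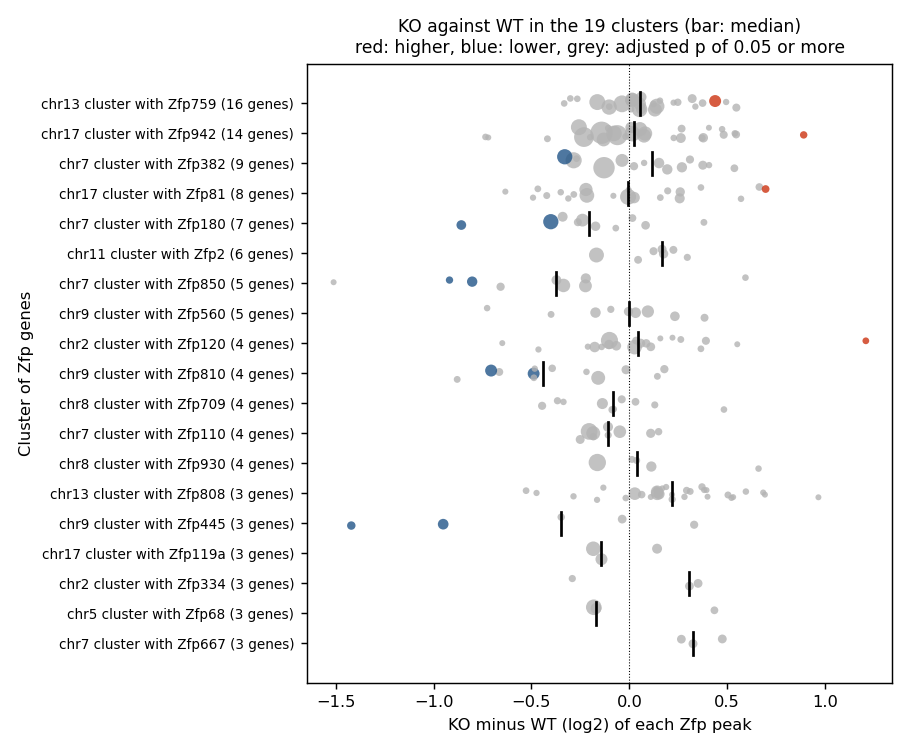
KO minus WT difference (log2) of each Zfp peak in the 19 clusters, ordered by number of genes, with point area following peak width, a bar at the cluster median and called peaks in red (higher) or blue (lower). The clusters with Zfp180, Zfp850, Zfp810 and Zfp445 hold 2 decreases each and have medians from -0.21 to -0.44, while the other medians lie between -0.17 and 0.33.

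Increases were found at 10 genes, at narrower peaks with a median width of 2100 bp. *Zfp503*, a developmental repressor also known as Nolz1, had a 3750 bp peak over its gene end (chr14:21982201-21985950) with 5.64, 5.41 and 5.22 in WT and 6.43, 6.51 and 6.34 in KO. The KO values were all higher, by a log2 fold change of 1.00 (limma adjusted p = 5.93e-05, standard error 0.17). The WT ChIP level at this peak did not exceed the unscaled WT input (log2 difference -0.0017). *Zfp462*, which encodes a nuclear protein tied to H3K9 methylation in embryonic stem cells, was increased at 2 peaks. The 5850 bp peak over a coding exon (chr4:55008001-55013850) had 6.45, 6.00 and 6.03 in WT and 7.03, 6.96 and 6.79 in KO, with a log2 fold change of 0.77 (limma adjusted p = 0.00068, standard error 0.15). The 1800 bp peak in an intron of the same gene had a log2 fold change of 0.96 (adjusted p = 0.035 from limma). Neither *Zfp503* nor *Zfp462* has a linker match in these peaks, and their WT levels of 3.52 and 3.61 per kb were below the median of the Zfp peaks. Peaks were found once over the ChIP libraries of both genotypes, so a region low in WT can enter through its KO signal. The WT level also enters the log2 fold change, so low WT levels at increased peaks are in part built in.

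Increases at finger exons were mostly at narrow peaks of low WT level, to which the same limit applies. The peaks at *Zfp46*, *Zfp287*, *Zfp1* and *Zfp52* were 1500 to 2100 bp wide, held 4 to 7 linker matches and had log2 fold changes of 0.98, 0.97, 0.91 and 0.89. At *Zfp46*, WT values were 3.99, 4.37 and 4.75 and KO values 5.33, 5.42 and 5.30 (adjusted p = 0.0080 from limma). At *Zfp52*, WT values of 4.93, 5.00 and 4.26 overlapped the KO values of 6.00, 6.04 and 4.82, so that the increase rests on KO replicates 1 and 2. The call at *Zfp287* (adjusted p = 0.04995 from limma) was kept in 0 of 6 fits with a library left out. *Zfp12*, with a 7950 bp peak and 4 matches, had 7.26, 7.20 and 7.34 in WT and 7.77, 7.79 and 7.64 in KO (log2 fold change 0.47, adjusted p = 0.021 from limma). The other increases lay at *Zfp345* (1.21), *Zfp955a* (0.70) and *Zfp58* (0.44), the last of which is outside the rule for named genes and was chosen after its values were seen. The authors' table gives this last peak (chr13:67513051-67523250) as overlapping *Zfp58*, but in GENCODE vM21 it lies outside that gene (67490167 to 67500555) and over *Zfp87* (67515781 to 67526177). Input reads at these peaks were low, with 10 to 94 for WT and 6 to 102 for KO over the 11 increases, and with 1 input per genotype their differences carry no replicate error.

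**Figure D5:**
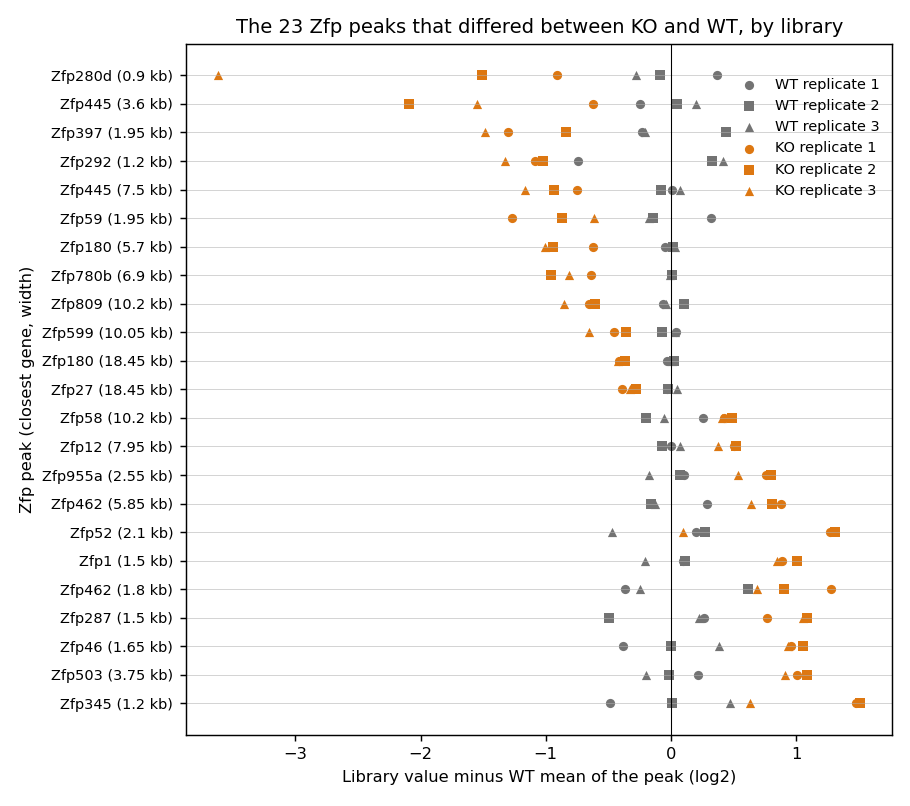
Values of the 6 libraries (log2, minus the WT mean of the peak) at the 23 Zfp peaks that differed between KO and WT, ordered by log2 fold change, with WT in grey and KO in orange and a marker shape per replicate number. Except at Zfp52, the 3 KO libraries lie on one side of the 3 WT libraries, and at Zfp280d KO replicate 3 lies far from the others.

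Averaged over the peaks of each gene, the comparison called 10 of the 207 Zfp genes (4.83%), beside 3.86% of all 5543 genes, of which 1.26% rose and 2.6% fell. The increased genes were *Zfp503*, *Zfp1*, *Zfp462*, *Zfp12* and *Zfp46*, with log2 fold changes from 0.47 to 1.00. The decreased genes were *Zfp445* (-1.19, adjusted p = 0.012 from limma), *Zfp180* (-0.63, adjusted p = 0.0068), *Zfp599*, *Zfp850* and *Zfp27* (-0.49 to -0.33). *Zfp850* has 1 peak of 13800 bp, which missed the threshold in the comparison of peaks (adjusted p = 0.065 from limma), and its difference was 0.051 after subtraction of the inputs, against -0.34 without. *Zfp180*, *Zfp445* and *Zfp503* kept their call whichever library was left out, and leaving out a library gave 4 to 9 calls. The median log2 fold change over Zfp genes was 0.01, and over all genes with a peak it was -0.11.

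Of *Zfp809*, *Zfp932*, *Zfp600*, *Zfp961*, *Zfp708*, *Zfp37* and *Zfp42*, which were listed by name and had a peak, *Zfp809* was the one with a peak that differed. Averaged over its 4 peaks, H3K9me3 at *Zfp809* was 5.64 ± 0.11 (SD, n = 3) in WT. It was 4.96 ± 0.28 (SD, n = 3) in KO, and the difference of -0.68 missed the threshold per gene (adjusted p = 0.053 from limma). *Zfp932* and *Zfp600*, which act on endogenous retroviruses, had 6 and 3 peaks and log2 differences per gene of -0.02 and 0.33. *Zfp961*, *Zfp708* and *Zfp37* had -0.06, 0.01 and -0.43. *Zfp42*, the pluripotency marker Rex1, had 4 peaks and a difference of 0.15. *Zfp57*, *Zfp568*, *Zfp281* and *Zfp36* had no peak.

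Genes that act in the H3K9me3 pathway were examined beside the Zfp genes. Of 30 such genes listed, 7 had a peak, with 40 peaks in all. Of these peaks, 24 were increased in KO, all at the chromodomain genes *Cdyl* (8 of 11 peaks) and *Cdyl2* (16 of 22 peaks). The peak at *Cbx3*, which encodes the heterochromatin protein HP1 gamma, was decreased. Over all peaks, 0.796% were up and 0.863% down. The increases at *Cdyl* and *Cdyl2* lie side by side within each gene and are not independent of each other. Over the 40 peaks, WT ChIP exceeded the unscaled WT input by a median of 0.39 (lower quartile -0.20). Some increased peaks lay below that input in WT, with log2 differences of -1.16 at a 5850 bp peak of *Cdyl2* and -1.13 at a 1200 bp peak of *Cdyl*. Others lay above it, such as a 6750 bp peak of *Cdyl2* (0.97). Peaks were found over both genotypes, so those low in WT can have entered through their KO signal. *Trim28* and *Setdb1*, through which KRAB zinc finger proteins act, had no peak. At 18 zinc finger genes with other names (Zscan, Zkscan, Zbtb and related), 1 of 36 peaks was called, an increase at *Zbtb17* (chosen after its value was seen).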

How the data were processed

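H3K9me3 ChIP-seq libraries of colon crypts (3 WT, 3 KO) and 1 input per genotype were taken from the deposited table of all peaks. The authors trimmed reads (Trim Galore 0.6.1 per the labels), mapped them to GRCm38 (Bowtie2 2.3.2), filtered them on mapping quality (at least 20), discarded duplicates and ran MACS once on all ChIP libraries (p = 1e-05, fragment size 300). ChIP values as deposited are log2 read counts matched across libraries by the authors, and the deposited inputs are log2 read counts without scaling. Read length is given as 50 bp single in the labels and as 100 bp paired in the methods. A second deposited table with the authors' own comparison was not used.

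KO was compared with WT by limma 3.58.1 (R 4.3.3; variance prior with a trend on the level, no covariate) over all peaks, and over gene means, at adjusted p under 0.05. Level per kb is the log2 value minus log2 of the width in kb. Linker matches, finger exons (at least 3 matches) and positions used the RefSeq GRCm38 sequence and GENCODE vM21, in which 2 of 449 peaks had gene IDs without a match. On simulated data with 200 changed peaks, 27.5% were recovered at a log2 change of 1 (5 false calls) and 82% at 2 (12 false calls). The gene comparison recovered 70% and 98.5% of 200 genes. Simulated peaks or genes of like level shared the same spread, as the prior with a trend assumes. The simulation therefore cannot give the rate of false calls where spread varies at a given level. The labels do not say that libraries came from separate mice, so p-values measure the spread between these libraries. The numbers of reads were recovered up to 100 per peak. Genes named are those with the 8 largest called increases and 8 largest called decreases, genes called per gene, the 10 densest and widest peaks, the 5 genes with most peaks, the gene with the widest peak of the 5 largest clusters, and a list of genes with known roles. The members, lists and rules were chosen with earlier results of these data known. Alternatives were another variance prior, a minimum mean log2 value of 4, centring, quantile normalization, subtraction of input, a replicate block, leaving out libraries, the widest peak per gene, other cluster distances and, chosen after seeing the data, voom on recovered reads. Other steps used Python 3.11.15.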

Additional observations from a re-analysis of the deposited data

How the results depend on the processing

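The number of Zfp peaks called, 23, was 0 with a variance prior without a trend (41 at an unadjusted p under 0.05), 113 after subtraction of the inputs, 11 with voom and 10 with limma, each fitted to peaks of at most 100 reads alone, and 14 to 22 with a library left out; with a minimum mean, centring or quantile normalization it was 21 to 24. Subtraction uses the same input value for all libraries of a genotype, so noise of the input does not enter the spread, and it called 15873 of all peaks. The number of Zfp genes, 10, was 2 without a trend, 59 after subtraction, 23 with the widest peak of each gene and 4 to 9 with a library left out, and *Zfp850* changed sign to 0.051 after subtraction. For the H3K9me3 pathway genes, 25 calls became 6 without a trend, 13 with voom and 13 with limma on those peaks, and 17 to 25 with a library left out. For the other zinc finger genes, 1 call became 0 without a trend, 6 after subtraction and 2 with a minimum mean, and stayed 1 in each fit with a library left out. The difference of the library means was -0.026 over genes in place of 0.011 over peaks. The causes were not tested, apart from the construction named for subtraction.

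Replicate numbers did not pair the libraries, with correlations of deviations from the group means of -0.0013, 0.019 and 0.016 for numbers 1 to 3. With the number as a replicate block, 22 Zfp peaks and 12 Zfp genes were called, and 25 and 1 peaks of the other lists. Clusters held 89 genes at 250 kb and 116 at 1000 kb in place of 108, and the median WT level was 4.18 per kb with overlapping peaks only. In simulated data 27.5% of changes of log2 1 were recovered over all peaks, and recovery by depth or width was not tested.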
